A study of Mus musculus with 3 samples.

Results

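The genes followed here were 9 markers of tuft cells, Dclk1, Trpm5, Il25, Alox5ap, Lrmp, Rgs13, Pou2f3, Sh2d6 and Avil, in single-cell RNA-seq data of mouse intestine. Of the 9, 8 had a row among the 13891 genes of the table, and Il25 was not analysed here. A cell with UMIs (unique molecular identifiers, each standing for 1 captured mRNA molecule) of 3 or more of the 8 genes was called tuft-marked, and 46 of 12653 cells met this rule. A cell with UMIs of both Cd3g (a chain of the T cell receptor complex) and Cd7 (a surface protein of T and NK cells) was called T-marked, and 548 cells met that rule.

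The libraries came from ICR male mice that were 3 weeks old at the start. In the AOS 0 group the mice received neither drug, and in the B + A 0 group busulfan (an alkylating chemotherapy drug) at 40 mg/kg. In the B + A 10 group they received busulfan at 40 mg/kg plus alginate oligosaccharide (AOS) at 10 mg/kg. The mice of all groups were gavaged for 2 weeks, those without AOS with water. The cells of 6 mice were pooled into 1 library a group, so that differences between groups have no replicate check and every interval given covers counting error only. UMIs of 1 cell are not independent of each other, so that the intervals of levels are too narrow in this respect. Values set side by side for the libraries are in library order throughout, the control (AOS 0) first, then busulfan alone (B + A 0), then busulfan with AOS (B + A 10). The libraries held 4106, 3195 and 5352 cells and 35258551, 26044381 and 23003083 UMIs, with a median of 7371, 6407 and 3505 UMIs per cell. The title, the description and the treatment label of each sample gave these groups, whereas the source label named the B + A 0 library AOS10 and the B + A 10 library B+A0. In all, 164 cells had a barcode that also occurred in another library, and 0 of these were tuft-marked.

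Tuft cells are rare epithelial cells of the gut that sense the content of the lumen with the signalling chain of taste cells, in which a G protein leads to calcium release and the cation channel Trpm5 opens. When stimulated they release the cytokine IL-25 together with leukotrienes and acetylcholine, which act on immune cells and neurons. The transcription factor Pou2f3 is needed for tuft cells to form, and several genes used to mark them also act in lymphocytes, mast cells or macrophages.

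The positions of the genes are given on build GRCm38 with the GENCODE vM21 annotation, in which all are protein-coding. Dclk1 spans chr3:55242364-55539068 on the plus strand, Trpm5 chr7:143069153-143094642 on the minus strand, Alox5ap chr5:149264767-149288153 on the plus strand and Lrmp chr6:145115653-145174934 on the plus strand. Rgs13 spans chr1:144138654-144177372 on the minus strand, Pou2f3 chr9:43123939-43210369 on the minus strand, Sh2d6 chr6:72513641-72521707 on the minus strand and Avil chr10:127000709-127020994 on the plus strand. Il25, which had no row, spans chr14:54932695-54935837 on the plus strand.

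Because the genes are detected in the same cells and Pou2f3 belongs to a family of factors that bind the octamer ATGCAAAT, the 250 bases before the transcription start are shown for the members with a single start in the RefSeq promoter table (GRCm38.p6), 5′ to 3′ on the strand of the gene. Capitals mark ATGCAAA, the first 7 bases of the octamer, and its reverse complement TTTGCAT. The stretches are chr10:127000459-127000708 of Avil on the plus strand, chr7:143094643-143094892 of Trpm5, chr1:144177373-144177622 of Rgs13 and chr6:72520037-72520286 of Sh2d6 on the minus strand.
Avil: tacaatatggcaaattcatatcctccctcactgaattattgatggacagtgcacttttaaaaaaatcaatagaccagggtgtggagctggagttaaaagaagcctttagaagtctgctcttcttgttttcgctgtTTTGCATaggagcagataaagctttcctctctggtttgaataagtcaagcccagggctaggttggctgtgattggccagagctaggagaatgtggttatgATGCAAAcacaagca
Trpm5: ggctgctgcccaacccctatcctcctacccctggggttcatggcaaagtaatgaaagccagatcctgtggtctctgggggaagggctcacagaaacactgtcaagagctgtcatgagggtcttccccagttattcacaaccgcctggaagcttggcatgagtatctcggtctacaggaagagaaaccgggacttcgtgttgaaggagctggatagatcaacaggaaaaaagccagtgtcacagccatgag
Rgs13: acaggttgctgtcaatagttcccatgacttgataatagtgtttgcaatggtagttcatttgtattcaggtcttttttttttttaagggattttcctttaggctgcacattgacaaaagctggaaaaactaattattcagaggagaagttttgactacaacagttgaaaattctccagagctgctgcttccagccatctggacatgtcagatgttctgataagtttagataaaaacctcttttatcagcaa
Sh2d6: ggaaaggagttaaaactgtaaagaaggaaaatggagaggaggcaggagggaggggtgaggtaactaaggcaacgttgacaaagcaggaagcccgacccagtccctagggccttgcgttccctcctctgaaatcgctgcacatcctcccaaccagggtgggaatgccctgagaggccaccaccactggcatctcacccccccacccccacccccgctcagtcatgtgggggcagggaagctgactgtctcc
The whole octamer, searched as ATGCAAAT and ATTTGCAT, was in 0 of the 6 windows of the 5 members in that table, against 1.60% of all 32851 windows of this length. The 7 bases were in the Avil window only, once on each strand, at 15 to 9 and at 115 to 109 bases before the start, and in 4.12% of all windows on either strand. Among 42 other genes known from tuft cells, 35 had windows in the table, and 6 of their 42 windows (14.3%) held the whole octamer. Of these 6 genes, Hpgds, Kctd12 and Nradd were higher in tuft-marked cells by the measure used below, and Il4ra and Itpr3 were not. Sucnr1, with 0 UMIs in tuft-marked and 5 in the remaining cells, had too few UMIs to be compared. The octamer is shown in capitals with 20 bases on each side for Hpgds, a prostaglandin D synthase, at chr6:65144877-65144924, and for Kctd12, a partner of GABA-B receptors, at chr14:102982770-102982817, both on the minus strand.
Hpgds: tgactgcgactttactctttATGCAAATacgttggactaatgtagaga
Kctd12: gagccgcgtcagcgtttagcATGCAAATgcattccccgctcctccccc
A match of letters is a description of these windows and says nothing of binding.

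The 8 genes were found together in few cells, and in most of those nearly complete. Of the 12653 cells, 12333 had a UMI of none of them, 266 of 1 and 8 of 2, while 5 cells had 3, 5 had 4, 6 had 5, 10 had 6, 12 had 7 and 8 had all 8. Cells with 6 to 8 of the genes thus outnumbered those with 2 to 5. The 30 cells with 6 to 8 genes had a median depth of 4946.5 UMIs, and the 16 cells with 3 to 5 one of 9617.5. The UMIs of the 8 genes summed to a median of 80.1 per 10000 UMIs of the cell (6.79 to 208) in the cells with 6 to 8, and to 15.1 (0.961 to 75.7) in those with 3 to 5. Just inside the rule, a B + A 0 cell of 31209 UMIs had 1 UMI each of Alox5ap, Rgs13 and Avil, whereas an AOS 0 cell of 3597 UMIs had 13 of Rgs13, 2 of Trpm5 and 1 of Lrmp. Just outside it, each of the 8 cells with 2 genes held 1 UMI of each, apart from 1 AOS 0 cell with 2 of Lrmp and 1 of Avil. Cells with 3 to 5 genes therefore included deep cells with single UMIs.

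**Figure D1:**
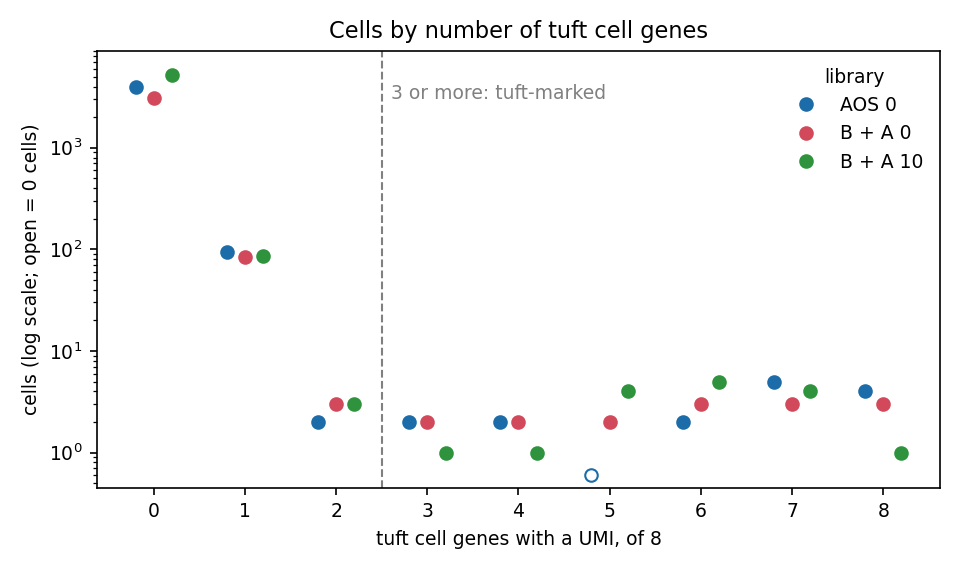
Number of cells (vertical, log scale) against the number of tuft cell genes with a UMI (horizontal, 0 to 8), as 1 point per library, with an open point for 0 cells and a dashed line at the rule of 3 or more. The counts drop to 2, 3 and 3 cells at 2 genes, lie between 0 and 5 from 3 genes on, and are 4, 3 and 1 at all 8 genes, in library order.

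To measure each gene in cells that it had not helped to choose, tuft-marked cells were chosen for each gene by 3 or more of the other 7 (42 to 44 cells that were not T-marked). The level was the summed UMIs per 10000 UMIs of those cells, and a gene was called higher where its level was at least 2-fold higher with the whole interval above 1. All 8 genes were called higher in tuft-marked than in the remaining cells, against a background of 6.92% of 12305 genes with at least 20 UMIs. The median log2 ratio over all those genes was 0.29. The smallest ratio of the 8 was 291-fold (189 to 449) for Trpm5 and the largest 3050-fold (2038 to 4751) for Rgs13.

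Pou2f3, the transcription factor, had a level of 1.32 (0.946 to 1.80) in tuft-marked cells, where 24 of 44 cells had a UMI, and of 0.00115 (9 UMIs) in the remaining 12061. In the taste chain, Trpm5 had a level of 1.60 (1.18 to 2.11) with a UMI in 29 of 43 cells, and of 0.00550 (43 UMIs) in the remaining cells. Rgs13, which shortens G protein signals, had a level of 10.1 (8.98 to 11.4) with a UMI in 29 of 42 cells, and of 0.00332 (26 UMIs in 14 cells) in the remaining cells, where 1 AOS 0 cell with Trpm5 and Lrmp as its other members held 13 of them. These 3 genes were found in 54.5, 67.4 and 69.0% of tuft-marked cells and in 0.0497, 0.348 and 0.116% of the remaining cells. The median depth was similar, at 5364.5, 5448 and 5364.5 UMIs for their tuft-marked cells and 5314 for the remaining cells. With each cell thinned to 1000 UMIs, the 3 genes were found in 9.09, 16.3 and 45.2% of tuft-marked cells. In the remaining cells they were then found in 0.00829, 0.0912 and 0.0166%.

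Alox5ap, the protein that hands arachidonic acid to 5-lipoxygenase for leukotriene synthesis, had a level of 9.18 (8.10 to 10.4) and a UMI in 37 of 43 tuft-marked cells. Its level in the remaining cells was 0.0115 (90 UMIs in 69 cells). Dclk1, a kinase bound to microtubules and the most used tuft cell marker, had a level of 5.08 (4.30 to 5.96) in 35 of 43 cells, and 16 UMIs in 14 of the remaining 12062 cells. Avil, an actin-bundling protein of the villin family, had a level of 3.30 (2.67 to 4.03) in 32 of 44 cells, and 34 UMIs in 32 of the remaining cells. Sh2d6, an adaptor with an SH2 domain, had a level of 4.19 (3.50 to 4.98) in 34 of 44 cells, and 15 UMIs in 15 remaining cells. Lrmp, a protein of the endoplasmic reticulum membrane first described in lymphoid cells, had a level of 6.29 (5.42 to 7.26) in 32 of 42 cells, and 45 UMIs in 44 remaining cells. Among the remaining cells, set for each gene and not T-marked, Dclk1, Sh2d6 and Pou2f3 had the fewest UMIs, and Alox5ap, Trpm5 and Lrmp the most. These cells include tuft-marked cells that the other 7 genes did not choose, such as the cell with 13 UMIs of Rgs13. Rgs13 had 303 of its 318 UMIs in the 46 tuft-marked cells, Dclk1 160 of 174, Sh2d6 136 of 153 and Pou2f3 41 of 49. Each gene had helped to choose those 46 cells.

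**Figure D2:**
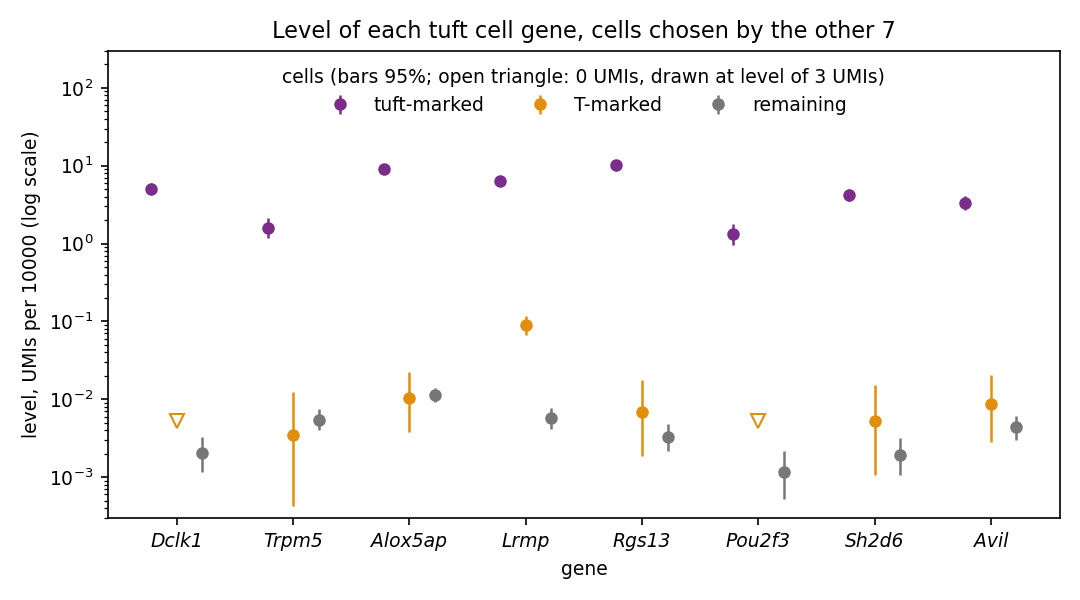
Level of each gene (UMIs per 10000, log scale) in tuft-marked cells chosen by the other 7 genes, in T-marked cells and in the remaining cells, with 95% counting intervals, and open triangles at the level of 3 UMIs where a group had 0 UMIs. Tuft-marked cells lie at 1.32 to 10.1 for all 8 genes, and Lrmp, at 0.0902, is the one gene called higher in T-marked than in the remaining cells (0.00575), while the T-marked intervals of Rgs13, Sh2d6 and Avil, whose points also lie above those of the remaining cells, overlap theirs.

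Lrmp was the one member found above background in T cells. In the 547 T-marked cells that were not tuft-marked, its level was 0.0902 (0.0674 to 0.118), 15.7-fold (10.3 to 23.9) above the remaining cells and 69.7-fold (51.0 to 96.8) below tuft-marked cells. By library, its level in T-marked cells was 0.243 (23 UMIs in 19 of 122 cells) in the control, 0.0419 (14 UMIs in 10 of 198) with busulfan and 0.101 (15 UMIs in 12 of 227) with busulfan and AOS. In the remaining cells it was 0.00468, 0.00487 and 0.00838, so that all 3 libraries showed the difference. The other 7 genes were not called in T-marked cells, 1 of 8 against a background of 4.34% of 12400 genes. Dclk1 and Pou2f3 had 0 UMIs there, at least 976-fold and 254-fold below tuft-marked cells by the level that 3 UMIs would give. Trpm5 had 2 UMIs, Sh2d6 3, Rgs13 4, Avil 5 and Alox5ap 6, with ratios to the remaining cells between 0.631 and 2.71 and intervals that included 1. At these counts, the upper bounds of these ratios ran from 2.05 (Alox5ap) to 9.59 (Sh2d6).

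The rule of Cd3g and Cd7 took in more than T cells. Of the 548 cells, 292 had at least 8 of 10 T cell genes (Cd3g, Cd7, Cd3e, Cd3d, Cd8a, Gzma, Gzmb, Nkg7, Ccl5 and Cd52), and 91 had 4 or fewer. A second group, added after these values were seen, was therefore made of all 335 cells with 8 or more of the 10 genes, called T-rich, of which 0 were tuft-marked. Lrmp was again the one member called, at 18.2-fold (11.9 to 27.7) above the remaining cells, where the background was 5.33%. Within the T-marked cells, 31 of the 292 T-rich cells had a UMI of Lrmp, and 2 of the 90 with 4 or fewer T cell genes. Among cells with a single one of the 8 genes, Lrmp alone was found in 79 cells, of which 39 were T-marked, whereas of the 70 cells with Alox5ap alone 5 were T-marked and of the 40 with Trpm5 alone 1 was.

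T cell mRNA was low in tuft-marked cells of all libraries against T-marked cells. Cd3g had 0 UMIs in 45 tuft-marked cells, and the 46th, a B + A 0 cell with 6 tuft cell genes, held 1 UMI of Cd3g and 1 of Cd7 and was left out of both groups. Cd7 had 8 UMIs in 5 of these 45 cells, a level of 0.250 against 0.228 in the remaining cells. The 10 T cell genes together had a level of 5.41 in tuft-marked cells and 4.99 in the remaining cells. They had 90.8 in T-marked and 149 in T-rich cells. Those groups were chosen by some or all of the same genes, so that the contrast with them was set by the rules. The level in tuft-marked cells was 0.721, 9.17 and 6.76 in library order, and 2.70 without the B + A 0 library or 8.42 without the AOS 0 library. Gzma, a granzyme, had a UMI in 53.3% of tuft-marked and 43.9% of the remaining cells, at levels of 1.47 and 1.38 against 37.3 in T-marked cells. Epcam, a surface protein of epithelium, was found in all 45 tuft-marked cells at a level of 14.2 (12.9 to 15.6), against 15.7 in the remaining and 8.02 in T-marked cells. In T-rich cells Epcam was found in 82.4% of cells at a level of 7.64. The 6 Paneth genes had a summed level of 2267 in T-rich and 402 in the remaining cells, with cell medians of 40.9 and 33.7. T-rich cells were thus not free of epithelial mRNA. The markers of macrophages and mast cells were at 0 UMIs in tuft-marked cells (4 genes of each list had a row), and those of B cells at 2 UMIs.

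Other blood cells were few, and Alox5ap was found in some of the macrophage-marked and mast cell-marked cells but in none of the 3 B cell-marked cells. The 4 cells with at least 2 macrophage genes held 12 UMIs of Alox5ap in 2 cells, a level of 6.80 (3.51 to 11.9). The 4 mast cell-marked cells held 3 UMIs of Alox5ap in 1 cell and 2 of Avil in 1 cell. The 3 B cell-marked cells held 1 UMI of Lrmp. The other members were at 0 in these groups, where 3 UMIs would be a level of 1.17 to 2.17, so that absence was not detectable at this depth. The 145 enteroendocrine-marked cells, the other rare epithelial type, held 3 UMIs of Avil and none of the other 7 genes, where 3 UMIs would be a level of 0.0309.

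The share of a gene's UMIs that lay in tuft-marked cells put the members in another order. These cells held 0.327 to 0.368% of all UMIs. They held 87.7% of the UMIs of Rgs13, 87.4% of Dclk1, 85.0% of Sh2d6 and 81.6% of Pou2f3. For Alox5ap the share was 71.0% and for Avil 69.9%, with 24.4 and 25.0% in the remaining cells. For Lrmp it was 63.9%, with 17.9% in T-marked cells, and for Trpm5 52.1%, with 45.7% in the remaining cells. The 43 UMIs of Trpm5 in remaining cells lay in 42 cells, never more than 2 in a cell. The UMIs of Trpm5 outside tuft-marked cells thus came singly, whereas those of Alox5ap reached 9 in 1 cell. The order was that of the pooled libraries and differed between them. In library order, the share in tuft-marked cells was 71.0, 57.1 and 31.4% for Trpm5 (22 of 31, 16 of 28 and 11 of 35 UMIs), 74.5, 54.2 and 50% for Lrmp, 62.5, 91.7 and 90.5% for Pou2f3 (10 of 16, 11 of 12 and 19 of 21 UMIs) and 97.4, 66 and 93.5% for Dclk1. Pou2f3 was thus lowest in the control, Lrmp with busulfan and Trpm5 with busulfan and AOS. These shares left out the 1 B + A 0 cell that was both tuft- and T-marked. That cell held a further 8 of the 72 UMIs of Lrmp in its library (11.1%), 6 of the 50 of Dclk1 (12%) and 0 of Trpm5. The place of Lrmp under Trpm5 with busulfan thus rested on leaving out that cell.

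**Figure D3:**
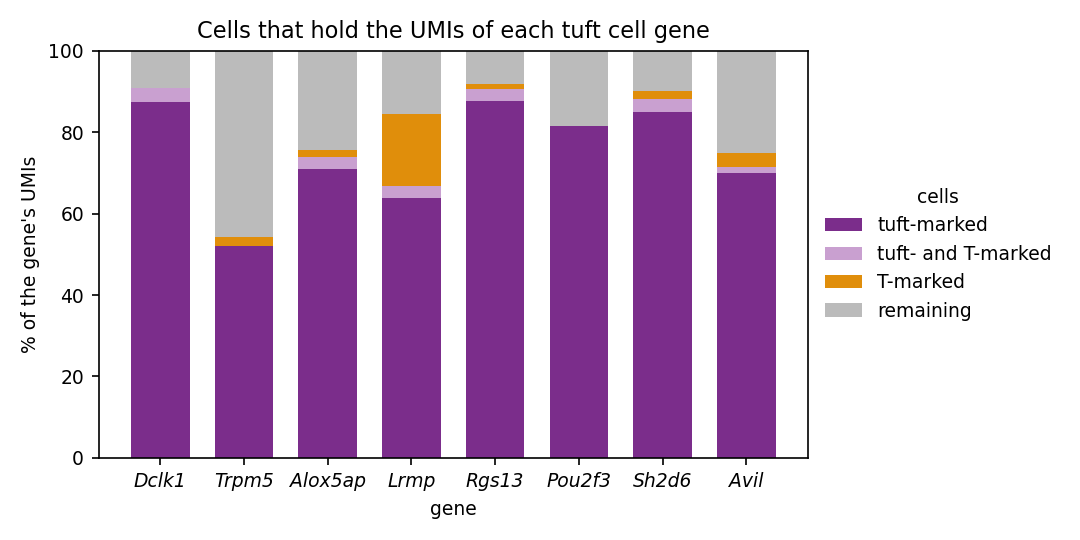
Share of each gene's UMIs (%, vertical) in tuft-marked cells chosen by the other 7 genes, in the 1 cell that was tuft- and T-marked, in T-marked and in the remaining cells. Rgs13 and Dclk1 lie highest in tuft-marked cells at 87.7 and 87.4%, Trpm5 lowest at 52.1% with the libraries pooled, and the T-marked share is largest for Lrmp at 17.9%.

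The same cells came together when the members were left out of the clustering. After clustering on 2000 variable genes without the members, 1 cluster of 40 cells held 39 of the 46 tuft-marked cells and 1 cell with 2 of the genes, and this cluster held the same cells at 3 settings of the cluster size (15, 19 and 29 clusters). It held 28 of the 30 cells with 6 to 8 genes. The cluster was picked as the one with the most tuft-marked cells, so that high member levels in it follow in part from that choice. The 7 tuft-marked cells outside lay in 5 clusters and had a median of 14293 UMIs, against 4897.5 in the cluster. All 8 genes were called higher in the cluster than in cells outside it that were not T-marked, by 402-fold (Trpm5) to 6167-fold (Rgs13), where 8.79% of genes were called. The levels were 6.94 for Dclk1, 2.21 for Trpm5, 12.4 for Alox5ap, 8.83 for Lrmp, 13.4 for Rgs13, 1.76 for Pou2f3, 5.81 for Sh2d6 and 4.24 for Avil. Each member had a UMI in 57.5% (Pou2f3) to 87.5% (Alox5ap) of the 40 cells.

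Among the tuft-marked cells, which the rule chose for holding 3 or more of these genes, the pairs of members ranged widely. Dclk1 and Alox5ap were found together in 36 of the 46 cells, the most of the 28 pairs, and Trpm5 with Pou2f3 and Pou2f3 with Avil in 17, the fewest.

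Other genes known from tuft cells rose with the members. Of 42 such genes, listed by role, 38 had a row and 36 had at least 20 UMIs in tuft-marked and remaining cells together. Of these 36, 30 were called higher in tuft-marked than in the remaining cells, where 6.92% of all genes were called. Some genes reached 20 UMIs through the tuft-marked cells, such as Hmx3 (21 and 0 UMIs) and Bmx (21 and 3). Tslp (1 and 15) and Sucnr1 (0 and 5) fell short of it. The list was chosen with earlier results of these data known, so that the count is a description. Their median log2 ratio was 6.57, against 0.29 over all genes. In T-marked cells 7 of 27 were called, where 4.34% of all genes were, and all 7 belonged to the 10 genes chosen as shared with blood cells.

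In the taste chain, Gng13, a G protein gamma subunit, had a level of 4.41 in tuft-marked cells against 0.00281 in the remaining cells, and Plcb2, the phospholipase it acts with, 0.908 against 0.00153. Itpr3, the calcium channel downstream of Plcb2, had a level of 0.250 (0.108 to 0.493) against 0.452, and Tas1r3, a taste receptor subunit, had 0 UMIs. All 5 genes of lipid mediators were called. Ltc4s, which makes leukotriene C4, had a level of 5.41 against 0.0563, Alox5, the 5-lipoxygenase that Alox5ap serves, 0.939 against 0.000511, Ptgs1 1.10 against 0.000511, Hpgds 1.38 against 0.00230 and Pla2g4a 0.689 against 0.0866. The 4 transcription factors with a row were called as well. Hmx2 had a level of 1.78 against 0.000767, Spib 1.22 against 0.00205 and Sox9 2.54 against 0.499, while Hmx3 had 21 UMIs in 17 tuft-marked cells and 0 UMIs in all T-marked and remaining cells, at least 126-fold and 1714-fold lower by the level of 3 UMIs.

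Of the 10 genes chosen as shared with blood cells, 9 were called in tuft-marked cells, and they fell into groups by their level in T-marked cells. Bmx, a kinase of the Tec family, had a level of 0.657 in tuft-marked cells and 0 UMIs in T-marked cells. Fyb, an adaptor of T cell receptor signalling, had a level of 5.85 in tuft-marked, 0.180 in T-marked and 0.0127 in the remaining cells. Ptpn6, a phosphatase of blood cells, had 3.22, 0.243 and 0.102 in the same order, Matk 1.35, 0.0312 and 0.00384, Vav1 1.10, 0.0503 and 0.0116, and Inpp5d 0.501, 0.0451 and 0.00473. These were called in both groups and lay at least 11.1-fold higher in tuft-marked than in T-marked cells. Against T-rich cells they lay 6.42-fold (3.20 to 12.5, Inpp5d) to 34.7-fold (18.4 to 70.2, Matk) higher, with Ptpn6 at 8.59-fold (6.57 to 11.2). Plcg2, with 1.13, 0.0642 and 0.0522, was called in tuft-marked cells only. Rac2, a small GTPase of blood cells, had a level of 0.689 (0.432 to 1.04) in tuft-marked cells, with UMIs in 8 of 45 cells, 0.972 in T-marked and 0.0639 in the remaining cells. Against T-rich cells, at 1.72, Rac2 was lower in tuft-marked cells beyond counting error. Ptprc, the common antigen of blood cells also known as CD45, had 3 UMIs in tuft-marked cells, a level of 0.0939 (0.0194 to 0.274) against 0.390 in T-marked cells, and was the 1 gene of the list that was lower in tuft-marked than in T-marked cells beyond counting error. The ratio of Rac2 to T-marked cells, 0.709, had an interval (0.441 to 1.08) that included 1.

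Of the cytokine receptors, Il17rb, the receptor of IL-25, had 4 UMIs in tuft-marked cells, a level of 0.125 (0.0341 to 0.321) against 0.00499, and was called, while Il13ra1 (48 UMIs, 1.79-fold higher) and Il4ra (8 UMIs) were not. Tslp, a cytokine, had 1 UMI. At the surface and in the cytoskeleton 7 of 8 genes were called. Cd24a had a level of 26.3 against 1.58, Krt18 37.7 against 4.67, Kctd12 9.30 against 0.0444, Espn 5.01 against 1.42, Ly6g6f 1.97 against 0.000895, Cd300lf 0.563 against 0.000895 and Siglecf 0.407 against 0.00268. Krt8, a keratin of all simple epithelia, was not called, at 38.9 against 23.6. Nrep and Nradd, named for a neuron-like kind of tuft cell, had 7 and 9 UMIs and levels of 0.219 against 0.0110 and 0.282 against 0.0173.

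**Figure D4:**
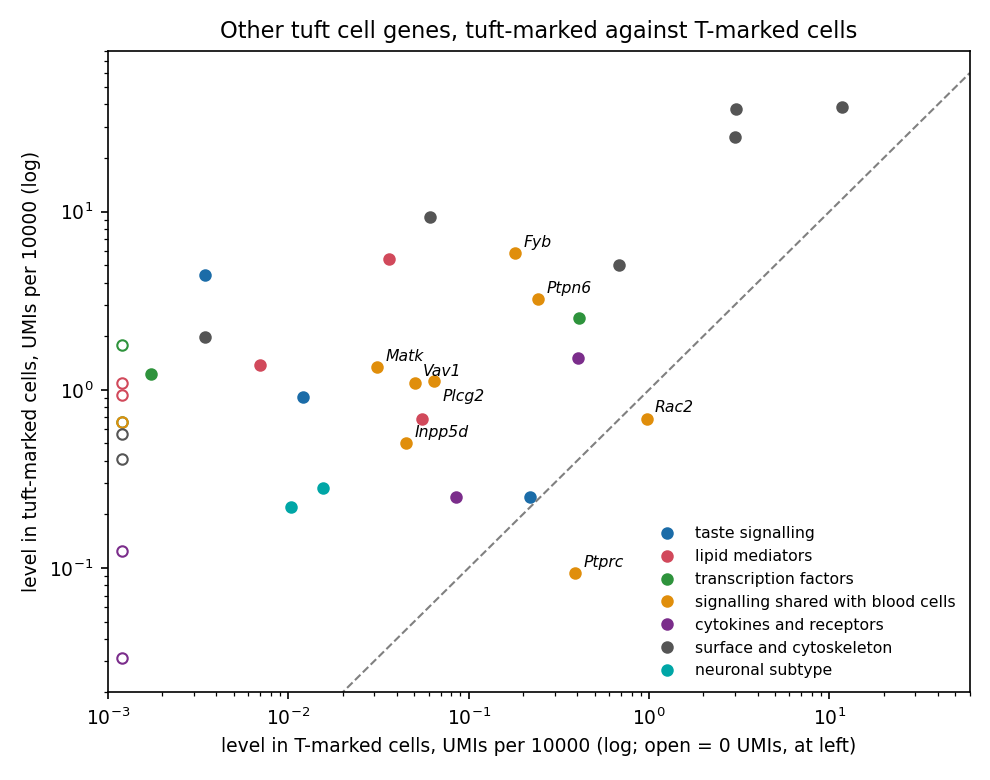
Level of the other tuft cell genes named in the text in tuft-marked cells (vertical) against T-marked cells (horizontal), both in UMIs per 10000 on log axes, coloured by role, with open points at the left for 0 UMIs in T-marked cells and a dashed line at equal levels. Ptprc and Rac2 lie under the line, while Fyb, Ptpn6, Matk, Vav1, Plcg2 and Inpp5d lie above it.

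Among 2289 genes outside all lists with at least 20 UMIs in tuft-marked cells and a UMI in at least 5 of the 45, the 10 with the pattern most like the members, by the ratio to all other cells, were Dgki, Sh2d7, Pygl, Strip2, Ly6g6d, Pik3r5, Nrgn, Ffar3, Ccdc109b and Smpx. They were picked by this ratio and by their UMIs in tuft-marked cells, so that high ratios follow from the choice and intervals do not cover it. Dgki, a diacylglycerol kinase, had 31 UMIs in 23 of the 45 tuft-marked cells and 3 UMIs in all other cells, a ratio of 2716 (847 to 13885). Sh2d7, an adaptor with an SH2 domain, had 31 UMIs in 18 cells and 8 elsewhere, a ratio of 1019, and Pygl, the liver form of glycogen phosphorylase, 46 UMIs in 27 cells and 16 elsewhere, a ratio of 756. Ffar3, a receptor of short-chain fatty acids, had 20 UMIs in 16 cells and 15 elsewhere. The 10 genes were found in tuft-marked cells of all 3 libraries, Dgki in 8, 7 and 8 cells.

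The share of tuft-marked cells did not differ between the libraries beyond counting error. It was 0.365% (0.205 to 0.602) in the control library, with 15 of 4106 cells, 0.469% (0.263 to 0.773) with busulfan, with 15 of 3195, and 0.299% (0.171 to 0.485) with busulfan and AOS, with 16 of 5352. The difference of B + A 0 from AOS 0 was 0.104 percentage points (-0.196 to 0.440), that of B + A 10 from B + A 0 -0.171 (-0.495 to 0.0917) and that of B + A 10 from AOS 0 -0.0664 (-0.329 to 0.169). With each cell thinned to 1000 UMIs, 9, 5 and 11 cells were left, 0.219, 0.156 and 0.206%, so that B + A 0 went from the highest to the lowest share, and no cell was left out since all held more than 1000 UMIs.

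Over all cells of a library, the members did not move together between the groups. At a threshold of 2-fold, 1 of 8 differed between B + A 0 and AOS 0, where 2.63% of all genes did, 0 of 8 between B + A 10 and B + A 0 (1.88%) and 2 of 8 between B + A 10 and AOS 0 (3.36%). At 1.5-fold the counts were 3, 2 and 4 of 8, where 8.25, 6.9 and 11.6% of all genes differed. Among the members with at least 100 UMIs, 1, 0 and 1 differed by 2-fold, where 0.901, 0.503 and 1.27% of all genes did. Each comparison had 4 members higher and 4 lower, and the comparisons share libraries. Rgs13 had a level over all cells of 0.0579, 0.0265 and 0.0196 UMIs per 10000 (204, 69 and 45 UMIs). Its log2 ratio was -1.13 (-1.54 to -0.73) for B + A 0 to AOS 0 and -1.56 (-2.06 to -1.09) for B + A 10 to AOS 0. In the control, 1 cell held 50 of the 204 UMIs. Pou2f3 had a level of 0.00454, 0.00461 and 0.00913, a log2 ratio of 1.01 (0.00 to 2.04) for B + A 10 to AOS 0 on 21 and 16 UMIs. Lrmp was lower in B + A 0 than in AOS 0, with a log2 ratio of -0.65 (-1.08 to -0.24), and in B + A 10 than in AOS 0, with -0.60 (-1.04 to -0.17). Sh2d6 was higher in B + A 0 than in AOS 0, with 0.76 (0.21 to 1.31), and lower in B + A 10 than in B + A 0, with -0.67 (-1.30 to -0.06). Dclk1 (78, 50 and 46 UMIs) and Alox5ap (160, 116 and 93 UMIs) had intervals that included equal levels in all 3 comparisons with all UMIs. With each cell thinned to 1000 UMIs this no longer held: the log2 ratio of Dclk1 was -2.64 (-5.80 to -0.55) for B + A 0 to AOS 0 and 2.58 (0.54 to 5.72) for B + A 10 to B + A 0, and that of Alox5ap -0.80 (-1.57 to -0.04) for B + A 10 to AOS 0. The ratio of Lrmp for B + A 10 to AOS 0 then included equal levels, at -0.43 (-1.25 to 0.38). In whole libraries, fewer tuft cells and less mRNA per tuft cell cannot be told apart.

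Within the tuft-marked cells of each library, the level of Rgs13 was 15.1 (13.0 to 17.5) over 14 control cells, 5.67 (4.24 to 7.41) over 12 cells with busulfan and 7.09 (5.13 to 9.55) over 16 cells with busulfan and AOS. The lowest, median and highest cell was 0, 14.9 and 88.0 UMIs per 10000 in the first library, 0, 2.17 and 34.6 in the second and 0, 2.84 and 49.2 in the third, so that the cells of the groups overlapped. Without the cell of 50 UMIs the level in AOS 0 was 11.5. Lrmp had levels of 10.98, 2.91 and 5.72 in library order, Dclk1 7.07, 2.46 and 7.46, and Pou2f3 0.931, 0.820 and 3.13. Alox5ap had levels of 9.14, 7.58 and 12.1, Trpm5 1.82, 1.28 and 1.81, Sh2d6 3.85, 4.17 and 4.95, and Avil 3.05, 2.82 and 4.62. Against AOS 0, the levels of Dclk1, Lrmp and Rgs13 in B + A 0 were lower at 2-fold beyond counting error. Those of the other 5 genes were neither lower nor higher, where 6.24% of all genes were lower and 4% higher. Dclk1 (3.03-fold) and Pou2f3 (3.82-fold) were higher in B + A 10 than in B + A 0, where 6.33% were. None was lower, where 4.03% were. Lrmp (1.97-fold) and Alox5ap (1.60-fold) were higher short of 2-fold. For B + A 10 to AOS 0, Pou2f3 (3.37) was higher and Rgs13 (0.470) lower, where 2.28 and 2.81% were. Lrmp (0.521) was lower short of 2-fold. The median gene of all those tested in these cells also had a log2 ratio of -0.29 for B + A 0 to AOS 0, and of 0.25 for B + A 10 to B + A 0. Genes of other cell types moved with the libraries in these cells. In library order, the 6 Paneth genes had a summed level of 84.9, 956 and 29.0, with cell medians of 28.8, 48.8 and 30.9. The 6 enterocyte genes had 24.4, 145 and 69.6, with cell medians of 28.2, 52.3 and 42.9, and the 10 T cell genes the levels given above. The part of these genes in the differences was not tested. In library order, the tuft-marked cells had a median depth of 5682, 6967 and 2685.5 UMIs. The rule of 3 or more genes with a UMI is met at lower levels in deeper cells. The part of depth in the differences was not tested either.

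**Figure D5:**
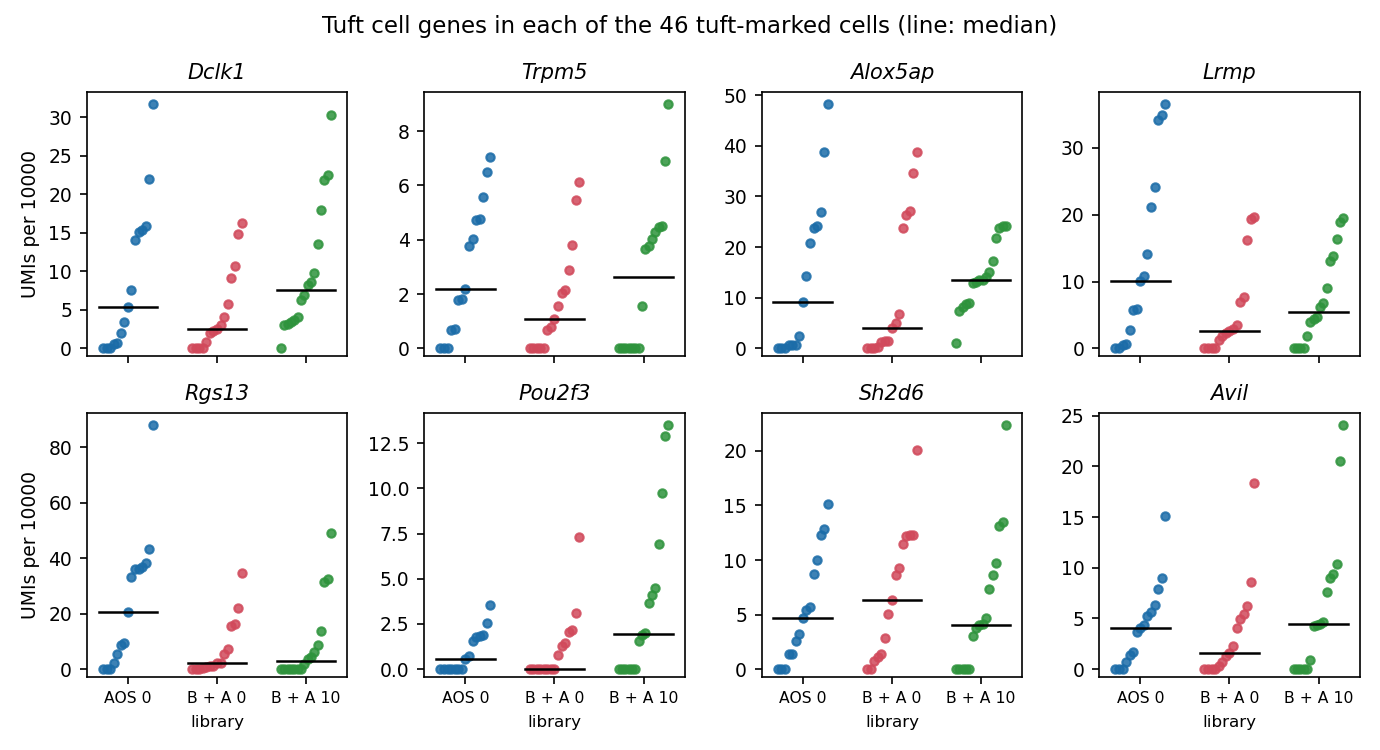
UMIs per 10000 of each gene (vertical) in each of the 46 tuft-marked cells, as 1 point per cell by library (15, 15 and 16 cells), with lines at the medians. The points of the 3 libraries overlap for all 8 genes, and the highest cell of Rgs13, at 88.0, is in AOS 0.

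The 40-cell cluster gave the comparison in cells grouped without the members, and was used for it after the values were seen. The members served only to pick this cluster, while the other tuft cell genes were not left out of the clustering. The cluster held 11, 13 and 16 cells of the libraries, with a median depth of 5448, 6446 and 2565.5 UMIs. The summed level of the 8 genes was 93.5 in the control (28.0 to 208 over cells), 36.1 with busulfan (3.998 to 136) and 46.7 with busulfan and AOS (8.97 to 111), and the cells overlapped. Called at 2-fold beyond counting error, Rgs13 (0.211), Lrmp (0.271), Dclk1 (0.356) and Trpm5 (0.478) were lower in B + A 0 than in AOS 0, 4 of 8 where 6.19% of 1340 genes were lower, and the median log2 ratio was -0.99 for the members against -0.07 for all genes. None of the 8 was higher, where 6.34% of genes were. Without the cell of most Rgs13 UMIs in each library, Rgs13 had a level of 24.5 in the control and of 4.85 with busulfan. Of 23 other tuft cell genes, 11 were lower, among them Fyb, Gng13 and Kctd12, and 0 were higher, with a median of -1.08. B + A 10 against B + A 0 had 1 member higher (Pou2f3, 2.80-fold) and 0 lower, where 2.72 and 3.84% of genes were. B + A 10 against AOS 0 had 0 higher and 2 lower (Rgs13 and Lrmp), where 3.26 and 4.22% were.

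These differences moved with the choice of cells. In tuft-marked cells chosen by the members, 5 of 23 other tuft cell genes were lower in B + A 0 than in AOS 0 and 0 higher, where 6.24% of genes were lower and 4% higher, with a median log2 ratio of -0.69 against -0.29 for all genes. In the same cells, 10 of 19 were higher and 0 lower in B + A 10 than in B + A 0, where 6.33 and 4.03% were, with a median of 1.04 against 0.25, while in the cluster 2 of 21 were higher and 1 lower, with a median of 0.41. B + A 10 against AOS 0 had 1 of 20 higher and 0 lower, where 2.28 and 2.81% were. In cells with 6 to 8 members, 1 of 21 was higher and 1 lower in B + A 0 than in AOS 0, where 5.06 and 3.49% of genes were, with a median of -0.27 against -0.07. In the same cells, 3 of 15 were higher and 0 lower in B + A 10 than in B + A 0, where 2.86 and 3.15% were, with a median of 0.45 against -0.03, and 2 of 18 were higher and 0 lower in B + A 10 than in AOS 0, where 4.04 and 1.96% were. The cluster left out 4, 2 and 1 tuft-marked cells of the libraries. Genes of other cell types moved with it: in the cluster, the 6 enterocyte genes had a summed level of 36.0, 152 and 49.6 in library order, the 6 crypt genes 7.48, 18.5 and 12.8, the 6 Paneth genes 26.5, 45.7 and 28.6 and the 10 T cell genes 1.40, 5.53 and 6.65. Their part in the result was not tested.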

How the data were processed

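Single-cell libraries were made with the 10x 3′ chemistry from intestine dissociated with TrypLE. The authors ran Cell Ranger 2.2.0 on build mm10, removed cells with fewer than 200 genes and genes in fewer than 3 cells, and deposited natural log values made with Seurat, in which each cell is scaled to 10000 UMIs and 1 is added before the log. Whole UMIs were recovered from these values for all entries within 0.01 of a whole number, and all levels rest on them. The table had 0 columns that were left unused.

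The members and gene lists were chosen with earlier results of these data known. Named were all members, the detected genes of the other tuft cell list, Cd3g and Cd7, the 10 genes most like the members, and the leading genes of other lists. Of the other tuft cell list, 1 gene was counted with its list but is not reported here. With 1 library a group no test was run. Intervals are 95% (exact Poisson for levels, Clopper-Pearson for shares, exact binomial for ratios, Newcombe for differences). A level at 0 UMIs was bounded by 3 UMIs. For each member, tuft-marked cells were chosen by 3 or more of the other members. Thinning drew 1000 UMIs of each cell. Clusters were found by Leiden at resolutions of 0.5, 1 and 2 on 30 components of 2000 variable genes without the members (scanpy 1.11.5, leidenalg 0.10.2, Python 3.11.15, numpy 2.4.6, scipy 1.17.1). Doublets were kept, and the 5% of cells with the highest Scrublet scores were left out as an alternative. The scripts were tested on simulated data. The tissue dissociation and the forced number of cells can change the share of rare cells.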

Additional observations from a re-analysis of the deposited data

How the results depend on the processing

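No paired analysis was possible because each group had 1 library. No called value changed its sign under the alternatives that gave a value. Of the main results, 76 values stayed within their interval or within 1.5 times the main count and 7 did not. Of the other values, which include the level of each member and its ratios between libraries, 246 stayed and 64 did not. With cells thinned to 1000 UMIs, 11 of these log2 ratios stayed and 11 did not. Of the levels, 11 moved in AOS 0 alone, 9 in B + A 0 alone and 9 in B + A 10 alone. With cells thinned to 1000 UMIs, the share of tuft-marked cells in B + A 0 was 0.156%, and 17 of the other tuft cell genes were called. With 2 or more of the other members, 2 members (Lrmp and Rgs13) were called in T-marked cells. At 1.5-fold, 3 members differed between B + A 0 and AOS 0, 2 between B + A 10 and B + A 0, and 4 between B + A 10 and AOS 0, the last being 1 among genes with at least 100 UMIs. The cause of these changes was not tested. All 8 members were called in tuft-marked cells and Lrmp in T-marked cells under all 10 alternatives run. The T-rich group, the cells with shared barcodes left out, the cluster as a set of cells for the comparison of libraries, the shares of UMIs by library and the T cell level without a library were chosen after seeing the data. Pou2f3 had 0 UMIs in B + A 0 when thinned, so that its ratios with that library had no value. The depth limits rare members most: Pou2f3 rested on 49 UMIs and Trpm5 on 94.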

Other observations

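Some genes of the tuft cell list were also found in the other rare epithelial cells. In the 145 enteroendocrine-marked cells, Kctd12 had 79 UMIs in 48 cells, a level of 0.814 against 0.0444 in the remaining cells and 9.30 in tuft-marked cells, and Cd24a had 343 UMIs in 104 cells, a level of 3.53 against 1.58 and 26.3. Genes of the list shared with blood cells were found in the 3 B cell-marked cells, all of the control library, with 33 UMIs of Rac2 in 3 cells and 11 of Ptpn6 in 3 cells. In the 4 macrophage-marked cells, Rac2 had 5 UMIs in 2 cells and Fyb 3 in 2 cells.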
